A study of Mus musculus with 62 samples.

Results

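The metabolite, sterol and prostaglandin receptors described here are 9 genes, Hcar2, Gpr84, Sucnr1, Ptger2, Ptger3, Ptger4, Ptafr, Gpr183 and Gpr165. They were found by matching gene symbols to the identifiers of the deposited count matrix, and all 9 of the 9 names were found among its 53801 gene identifiers. The matrix holds 62 RNA-seq libraries of CD11b+ cells of mouse brain, and the series title calls the cells microglia; CD11b is a surface marker of myeloid cells. The libraries fall into 16 groups of 3 to 5. The genotypes are WT (wild type), NLRP3 (which the series title writes as NLRP3-/-, a loss of the inflammasome sensor Nlrp3), APPPS1 (mice with the Alzheimer's disease transgenes APP and PS1) and APPPS1_NLRP3 (the same transgenes without Nlrp3). Each genotype was collected at 4, 6 and 12 months (4m, 6m, 12m), and each again at 12 months with the tag Mxo4, which the labels do not explain. The labels name no promoter for the transgenes and no strain, and they do not say whether each library came from its own animal, so the p-values measure the spread between these libraries only.

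These receptors belong to the G protein-coupled family and read lipids and metabolites outside the cell. Hcar2 binds the ketone body beta-hydroxybutyrate and niacin, Gpr84 binds medium-chain fatty acids and is known to be induced in inflamed myeloid cells, and Sucnr1 binds succinate. Ptger2, Ptger3 and Ptger4 bind prostaglandin E: Ptger2 and Ptger4 couple to the stimulatory G protein and raise cyclic AMP, whereas Ptger3 couples mainly to inhibitory G proteins and lowers it. Ptafr binds platelet-activating factor, Gpr183 binds dihydroxycholesterols made by Ch25h and Cyp7b1 and guides immune cell movement, and Gpr165 is an orphan receptor. In the brain, microglia are a main site of expression for several of them, and prostaglandin E signalling has long been studied there as part of neuroinflammation.

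Depth ranged from 659 counts (APPPS1_6m replicate 21) to 27604393, with a median of 18392142.5. Replicate 21 stayed in the fits and was left out of every level below, which leaves 61 libraries. The next shallowest were NLRP3_12m replicate 45 with 1394435 counts and APPPS1_12m replicate 41 with 6187249. Nlrp3 itself lay between 60.4 and 271 CPM (counts scaled to library size) in 30 libraries with intact Nlrp3 and between 0 and 2.27 CPM in 31 without it. The 12 microglial markers summed to 38020 to 61190 CPM in all 61 libraries, against 539 to 3436 CPM for neutrophil markers, 40.3 to 449.9 for monocyte markers and 192.5 to 1341 for markers of border-associated macrophages. Of the neutrophil markers, Csf3r alone read 449.6 to 769.1 CPM with a median of 597, whereas Ly6g had a median of 0.721 CPM. In most libraries the neutrophil sum thus rests largely on Csf3r. The highest neutrophil and monocyte sums were both in APPPS1_12m replicate 38. Read from Xist and Y-linked genes, all libraries at 4 months and all WT_12m and APPPS1_12m libraries were female, and all NLRP3_12m and APPPS1_NLRP3_12m libraries were male. The WT_6m libraries and the APPPS1_6m libraries used for levels were all female. NLRP3_6m held 3 female and 1 male libraries, and APPPS1_NLRP3_6m held 2 female and 3 male. Each Mxo4 group held both sexes. APPPS1_12m_Mxo4 replicate 56 stood apart from the other 3 libraries of its group in most of these receptors, and results that rest on that group are given with and without it. The titles end in 3 numbers, of which the second takes the values 1 and 2, and values within each are given beside many of the results below. Of number 1, WT_12m has only replicate 40. Of number 2, NLRP3_12m has only replicate 42, APPPS1_4m only replicate 6 and APPPS1_12m_Mxo4 only replicate 56. Values within those numbers rest on that library alone for its group.

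The promoters are shown for the receptors that rose or fell with the transgenes, as described below, except Hcar2. RefSeq (assembly GRCm38.p6) gave a window of 250 bases before to 50 after the start for 8 of the 9 genes, and Hcar2 had no entry. The 4 printed here belong to the prostaglandin receptors that moved in opposite directions, Ptger4 (chr15:5244138-5244437, − strand) and Ptger3 (chr3:157566626-157566925, + strand), and to a rising and a falling receptor of the other kinds, Gpr84 (chr15:103310389-103310688, − strand) and Gpr165 (chrX:96713218-96713517, + strand). Each is written 5′ to 3′ on the strand of its gene, with CG dinucleotides in capitals.
Ptger4: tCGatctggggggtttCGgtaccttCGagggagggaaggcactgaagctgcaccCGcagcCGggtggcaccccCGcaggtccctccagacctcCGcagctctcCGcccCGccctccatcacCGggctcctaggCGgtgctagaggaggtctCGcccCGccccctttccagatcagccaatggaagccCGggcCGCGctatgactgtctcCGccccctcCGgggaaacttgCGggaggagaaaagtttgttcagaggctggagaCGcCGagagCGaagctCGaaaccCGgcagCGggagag
Ptger3: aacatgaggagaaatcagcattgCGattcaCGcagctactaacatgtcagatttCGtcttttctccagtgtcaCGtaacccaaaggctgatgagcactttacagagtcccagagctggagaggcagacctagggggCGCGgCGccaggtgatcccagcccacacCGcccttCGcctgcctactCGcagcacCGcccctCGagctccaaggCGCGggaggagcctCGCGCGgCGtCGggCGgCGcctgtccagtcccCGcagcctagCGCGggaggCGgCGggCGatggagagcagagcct
Gpr84: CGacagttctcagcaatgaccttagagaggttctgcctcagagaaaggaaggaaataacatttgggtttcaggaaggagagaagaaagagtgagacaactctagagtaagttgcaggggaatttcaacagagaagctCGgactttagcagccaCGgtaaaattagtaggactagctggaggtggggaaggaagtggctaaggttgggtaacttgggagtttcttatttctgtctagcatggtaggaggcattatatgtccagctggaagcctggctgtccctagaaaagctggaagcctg
Gpr165: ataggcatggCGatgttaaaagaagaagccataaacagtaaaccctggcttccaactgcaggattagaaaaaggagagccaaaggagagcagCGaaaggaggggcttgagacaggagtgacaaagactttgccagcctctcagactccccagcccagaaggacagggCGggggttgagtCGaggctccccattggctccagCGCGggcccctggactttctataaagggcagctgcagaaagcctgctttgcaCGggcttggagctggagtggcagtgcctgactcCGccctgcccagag
Ptger4 had 25 CG dinucleotides at 67.0% GC and Ptger3 27 at 64.0% GC, against medians of 7 and 52.7% over 32851 windows of 300 bases. Gpr84 had 3 at 47% GC and Gpr165 had 8 at 57%. The other 4 windows had 3 to 6 CG dinucleotides, with a GC content of 35.3% in Gpr183 as the lowest. The prostaglandin receptors with opposite courses thus shared a promoter rich in CG dinucleotides.

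Short motifs were searched on both strands of these windows. PU.1 (GAGGAA, in 28.28% of all windows) matched in Sucnr1 at −123 and in Ptafr at −242 from the start, and AP-1 (TGANTCA, 7.81%) matched in Sucnr1 at −159. HIF (ACGTG, 19.62%) matched in Ptger3 at −179 and in Gpr183 at −40. CREB (TGACGTCA, 1.79%), IRF (GAAANNGAA, 8.56%) and a letter pattern like NF-kB (GGGNNTTCC, 5.82%) matched in none of the 8 windows. Ptger4, Ptger2, Gpr84 and Gpr165 held none of the 6 motifs. These are matches of letters only.

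All 9 genes are protein coding, and coordinates are those of GENCODE vM21 on GRCm38. Hcar2 is a single exon of 1930 bases (ENSMUSG00000045502, chr5 123863570 to 123865499, − strand), and Gpr84 (ENSMUSG00000063234, chr15 103308235 to 103310612, − strand) and Ptafr (ENSMUSG00000056529, chr4 132564067 to 132582683, + strand) have 2 exon blocks each. Ptger2 lies at chr14 44988195 to 45003820, + strand (ENSMUSG00000037759), Ptger3 at chr3 157566892 to 157645888, + strand (ENSMUSG00000040016) and Ptger4 at chr15 5206661 to 5244187, − strand (ENSMUSG00000039942). Sucnr1 lies at chr3 60081869 to 60087566, + strand (ENSMUSG00000027762), Gpr183 at chr14 121952551 to 121965195, − strand (ENSMUSG00000051212) and Gpr165 at chrX 96713441 to 96719388, + strand (ENSMUSG00000031210). The strand setting of the counting is not given in the sources used here, so reads of overlapping antisense genes cannot be told apart. Gpr84 shares 681 exon bases with antisense Gm49482, Ptger4 shares 82 with Ttc33 and 1015 with the pseudogene Gm15937, and Ptger2 shares 144 with Gm49364 and 246 with Gm17173. Gpr183 lies inside Ubac2 and shares 0 exon bases with it, and the other 5 overlap no annotated gene.

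Per length of exon, Gpr183 and Gpr84 were the most abundant of the 9, with medians over 61 libraries of 112 and 96.8 RPKM (CPM per kilobase of exon). Hcar2 (28.6 RPKM) and Ptafr (26.4) followed, then Gpr165 (8.33), Ptger4 (3.25) and Ptger3 (1.51). Ptger2 had a median of 0.0383 RPKM and 317 counts in all, with 5 libraries at 0. Sucnr1 had 2 counts in all 61 libraries together and was at 0 in 59 of them; in a library of median depth 3 counts correspond to 0.163 CPM, which is the level a count of 0 allows. Sucnr1 failed the filter on low counts, so 8 of the 9 genes were tested. The ranges over libraries overlapped between each pair of neighbours in this order.

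Between groups, the levels of Hcar2 spread most, with a mean of 19.4 CPM in WT_4m and 319 CPM in APPPS1_12m, a 16.5-fold range. The range from the lowest to the highest group mean was 12.5-fold for Ptger3, 7.86-fold for Gpr165, 6.01-fold for Ptger4 and 4.14-fold for Gpr84. It was 2.38-fold for Ptafr and 1.36-fold for Gpr183, the steadiest of the 7 abundant receptors.

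**Figure D1:**
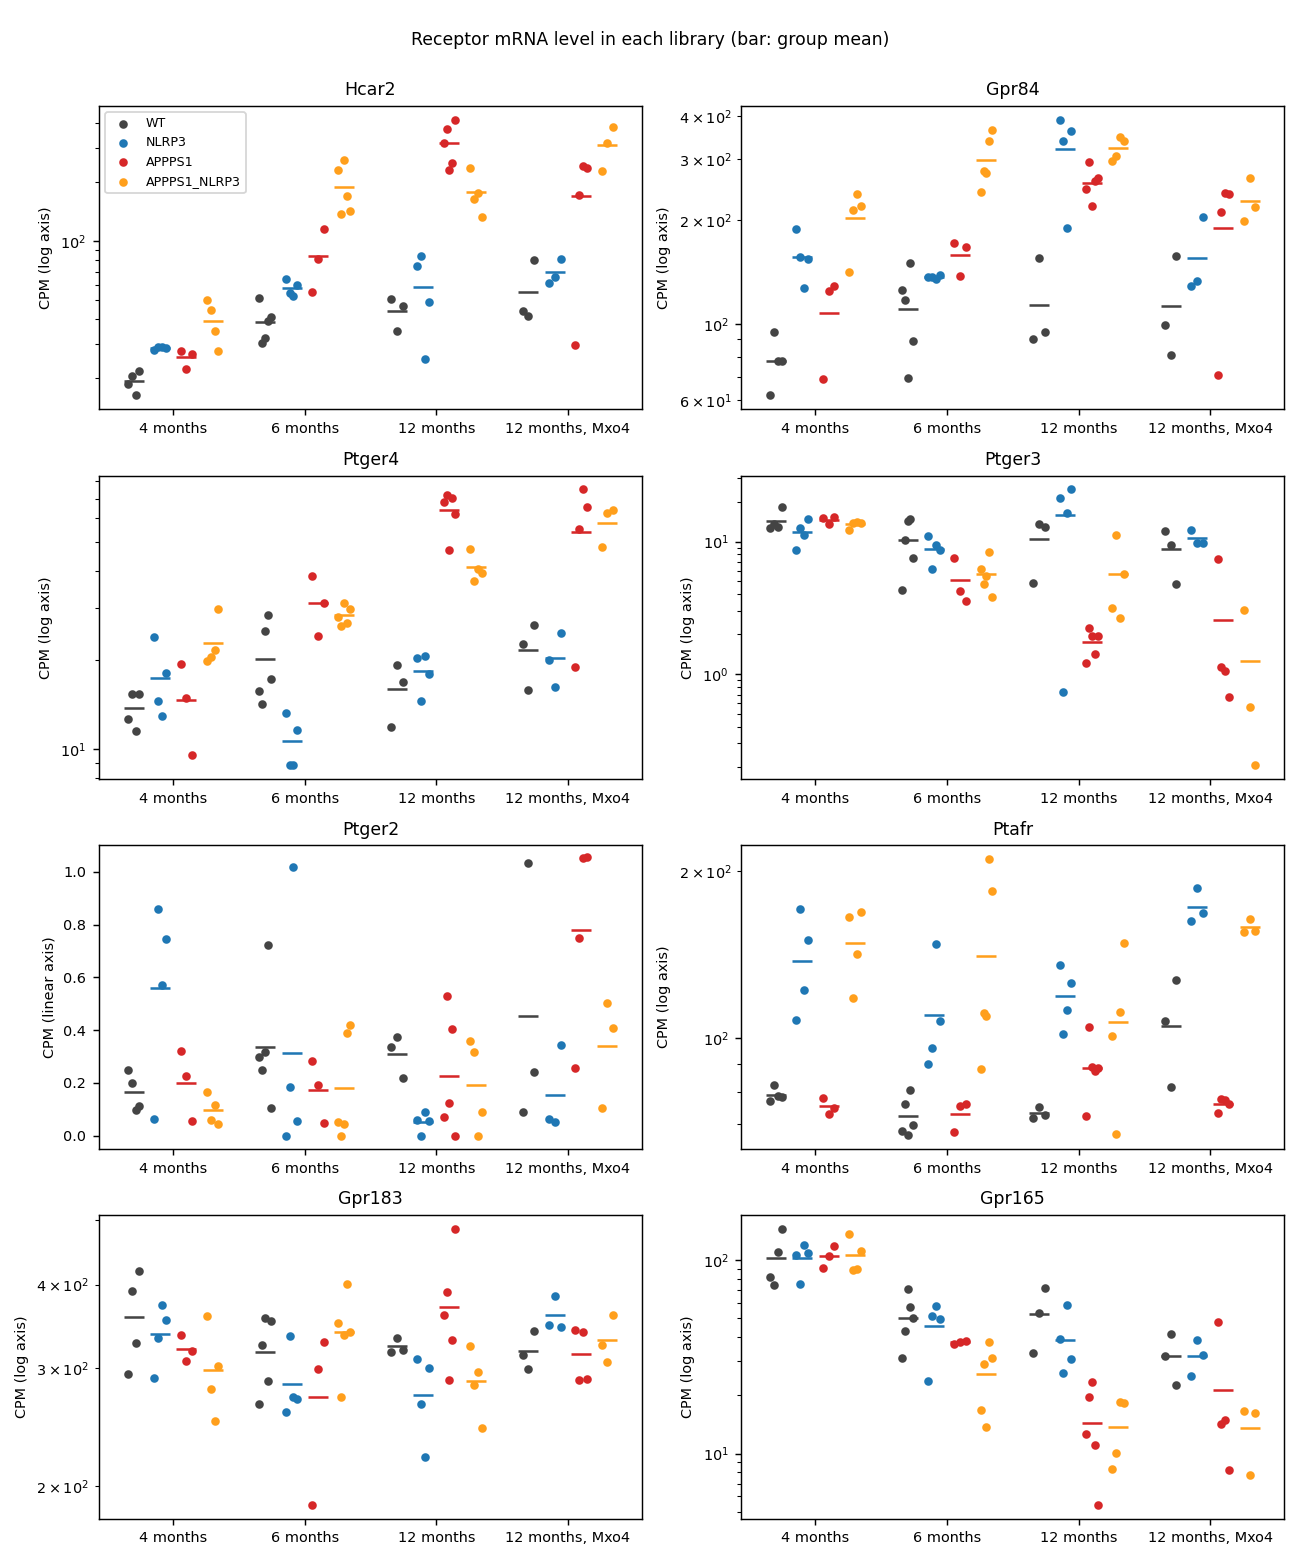
Levels of 8 receptors in CPM (vertical axis, logarithmic except for Ptger2) in each of 61 libraries, by group (horizontal axis, 4 genotypes at 4, 6 and 12 months and at 12 months with the tag Mxo4), where a point is a library and a bar is the group mean. Hcar2 and Ptger4 are highest and Ptger3 and Gpr165 lowest in the older groups that carry the transgenes, and APPPS1_12m_Mxo4 replicate 56 lies apart at 29.7 CPM of Hcar2.

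The first comparison asked how the APP and PS1 transgenes related to these receptors at each age. At 12 months Hcar2, Gpr84 and Ptger4 rose and Ptger3 and Gpr165 fell in APPPS1 against WT, whereas Ptafr, Gpr183 and Ptger2 did not pass the test. A gene was called at an adjusted p under 0.05 in the quasi-likelihood test of edgeR, over 19865 genes. At 12 months 3 of 8 receptors were called higher and 2 lower, where 18.1% of all genes were called, and their median log2 difference was 0.222 against −0.075 over all genes. At 6 months 0 of 8 were called (3.03% of all genes), and DESeq2 called 1. An unadjusted p under 0.05 was reached by 3 receptors and by 3460 of 19865 genes. For the DESeq2 counts, here and below, no share of all genes is given. At 4 months 0 of 8 were called (0.0252% of all genes), 0 had an unadjusted p under 0.05 (505 of 19865 genes) and DESeq2 called 0. In the Mxo4 set 2 were called higher (5.08% of all genes), and 3 higher and 2 lower without replicate 56 and the library of 659 counts, where 12.6% of all genes were called.

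Without Nlrp3 the same question was asked by APPPS1_NLRP3 minus NLRP3. Here 3 of 8 receptors were called higher at 6 months (8.03% of all genes), 2 higher and 2 lower at 12 months (8.69%), and 2 higher and 1 lower in the Mxo4 set (5.14%). At 4 months 0 were called (0.0101%), 1 had an unadjusted p under 0.05 (886 of 19865 genes) and DESeq2 called 0. With 8 genes, 1 call alone is a larger share than that of all genes in each transgene comparison with a call, except APPPS1 minus WT at 12 months. The shares are thus too coarse to set against each other. Hcar2, Gpr84 and Ptger4 had a positive difference in all 8 transgene comparisons, and Ptger3 and Gpr165 had a negative one in 6 of 8. For Gpr84, 2 of the 8 were called and the lowest was 0.01. The share of all genes with such a run of signs was not computed. Both 6-month groups without Nlrp3 held female and male libraries, and with a term for sex the differences at 6 months were 1.83 (adjusted p = 0.000152) for Hcar2, 1.24 (adjusted p = 0.000409) for Gpr84 and 1.58 (adjusted p = 4e-06) for Ptger4.

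The mean of the 8 transgene differences, a summary chosen after seeing the data, was 1.50 ± 0.13 (adjusted p = 1.98e-13) for Hcar2, 1.06 ± 0.09 (adjusted p = 1.04e-13) for Ptger4 and 0.62 ± 0.09 (adjusted p = 4.11e-07) for Gpr84. It was −1.30 ± 0.19 (adjusted p = 3.49e-07) for Ptger3 and −0.79 ± 0.14 (adjusted p = 1.19e-05) for Gpr165. These 5 calls stand against 34.4% of all genes called in that mean. All such values are log2 differences ± standard error from edgeR with adjusted p. In bulk libraries, fewer cells of a type and less RNA per cell cannot be told apart.

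**Figure D2:**
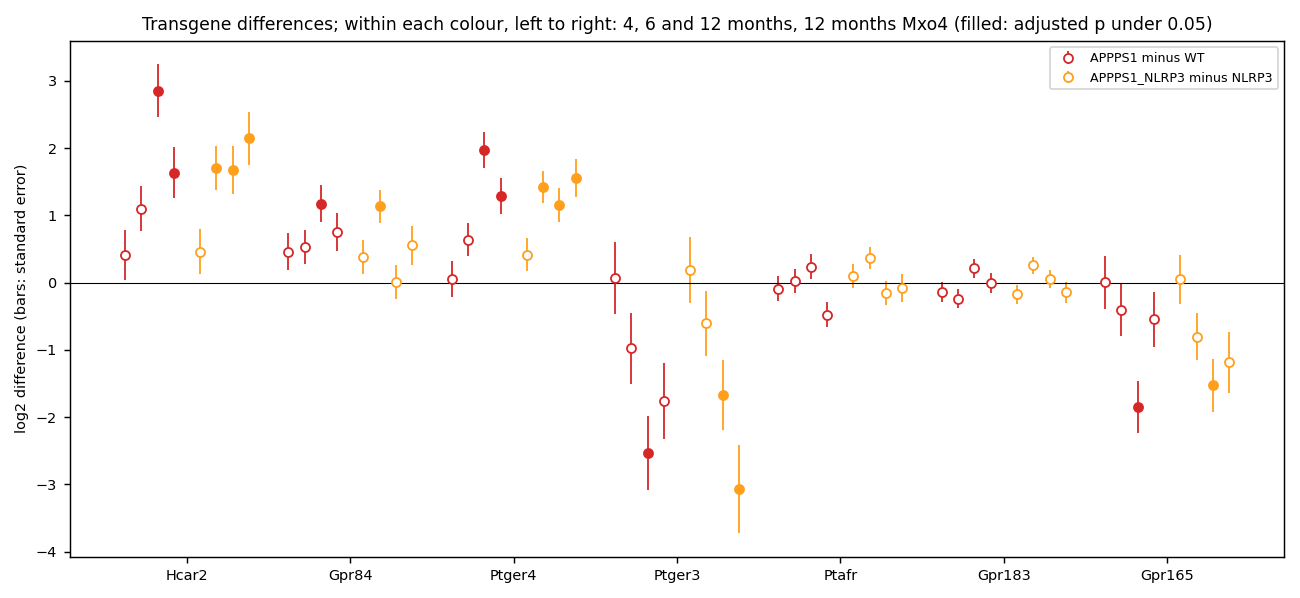
Transgene differences of 7 receptors (vertical axis, log2 difference, bars are the standard error) in 8 comparisons, 4 with intact Nlrp3 and 4 without, where filled points have an adjusted p under 0.05. Hcar2 and Ptger4 lie above 0 throughout, Ptger3 and Gpr165 lie below 0 from 12 months on in both backgrounds, and Ptafr lies between −0.48 and 0.36.

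Of the prostaglandin E receptors, Ptger4, which raises cyclic AMP, rose with the transgenes at 12 months with intact Nlrp3, and at 6 and 12 months without it. In WT_12m it read 11.8, 16.8 and 19.2 CPM. In APPPS1_12m it read 47, 62.3, 67.9, 70.1 and 72.1 CPM. The lowest APPPS1_12m library was thus above the highest of WT, and the difference was 1.97 ± 0.27 (adjusted p = 4.28e-07). Within second title number 1, where replicate 40 is the only WT_12m library, it was 1.91. Within number 2 it was 2.07 (adjusted p = 1.09e-06). At 6 months the 3 APPPS1 libraries read 24, 31.2 and 38.4 CPM against 14.2, 15.7, 17.2, 25.1 and 28.3 in WT, which overlap, and 0.64 ± 0.24 (adjusted p = 0.147) did not pass the test. At 4 months WT read 11.5, 12.7, 15.4 and 15.4 CPM and APPPS1 9.58, 14.9 and 19.3, with the WT values inside the APPPS1 range.

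Without Nlrp3, the Ptger4 libraries did not overlap at 6 months: NLRP3_6m read 8.81, 8.86, 11.6 and 13.3 CPM. The 5 APPPS1_NLRP3_6m libraries read 26, 26.6, 27.9, 29.7 and 31.2 CPM, all above every NLRP3_6m library, and the difference was 1.42 ± 0.24 (adjusted p = 4e-05). They overlapped the APPPS1_6m libraries at 24 to 38.4 CPM. The edgeR interaction of transgenes and Nlrp3 at 6 months was not called, also without replicate 56 and the library of 659 counts (0.77, adjusted p = 0.518). The NLRP3_6m libraries were also below all 5 WT_6m libraries; this difference of −0.92 ± 0.24 (adjusted p = 0.0618) did not pass the test, and DESeq2 called it. At 12 months NLRP3 read 14.5, 18, 20.2 and 20.6 CPM and APPPS1_NLRP3 37, 39.2, 40.6 and 47.3, with no overlap and a difference of 1.15 ± 0.25 (adjusted p = 0.00157). It was 1.11 (adjusted p = 0.00892) within second title number 1. Within number 2, where replicate 42 is the only NLRP3_12m library, it was 1.08 and not called. With the tag, NLRP3 read 16.2, 20.02 and 24.5 CPM and APPPS1_NLRP3 47.9, 62.5 and 63.9, again apart, with 1.55 ± 0.29 (adjusted p = 0.000197). With intact Nlrp3 and the tag, WT read 15.8, 22.6 and 26.2 CPM and APPPS1 18.9, 55.3, 65.7 and 75.2. The lowest of these 4 was replicate 56, inside the WT range; the difference was 1.29 ± 0.27 (adjusted p = 0.00159) with it and 1.58 (adjusted p = 2.17e-06) without it and the library of 659 counts.

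Ptger3, which lowers cyclic AMP, went the other way. In WT_12m it read 4.83, 12.9 and 13.6 CPM. In APPPS1_12m it read 1.21, 1.41, 1.94, 1.95 and 2.23 CPM, all under the lowest WT library. The difference was −2.53 ± 0.55 (adjusted p = 0.00058). It was −2.77 within second title number 1, with replicate 40 as the only WT_12m library, and −2.66 (adjusted p = 0.0371) within number 2. At 4 months APPPS1 was at 13.4, 15 and 15.4 CPM and WT at 12.7, 12.9, 13.6 and 18.1, and at 6 months the 3 APPPS1 libraries were at 3.55, 4.23 and 7.54 CPM against 4.27, 7.45, 10.3, 14.2 and 14.7 in WT. The 4-month groups overlapped, and so did the 6-month groups, where the difference was −0.98 ± 0.53 (adjusted p = 0.343). The libraries are shallow for this gene: the 1.21 CPM of APPPS1_12m replicate 35 rest on 17 counts.

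Without Nlrp3, Ptger3 in NLRP3_12m was 0.726, 16.5, 21.3 and 24.8 CPM, where the lowest value is 1 count in the shallow replicate 45. The APPPS1_NLRP3_12m libraries were at 2.65, 3.17, 5.64 and 11.2 CPM, under the other 3 of NLRP3. The difference was −1.68 ± 0.52 (adjusted p = 0.0318) and −1.94 (adjusted p = 0.00988) without replicate 45. Its adjusted p reached 0.125 when 1 library was left out; the call was lost without any 1 of replicates 42, 43, 46, 47, 48 and 49. Among tagged libraries NLRP3 read 9.74, 9.79 and 12.3 CPM and APPPS1_NLRP3 0.205, 0.566 and 3.02, apart by −3.07 ± 0.66 (adjusted p = 0.00179); the lowest value rests on 3 counts. With intact Nlrp3 and the tag, WT read 4.82, 9.41 and 12 CPM and APPPS1 0.667, 1.05, 1.13 and 7.36. Here replicate 56 was the highest of its group and inside the WT range. The difference was −1.76 ± 0.56 (adjusted p = 0.0553) with it, and −3.20 (adjusted p = 0.000142) without it and the library of 659 counts.

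Beside the falls of Ptger3 and Gpr165 at 12 months, the 10 markers of border-associated macrophages summed to 194 to 442 CPM in APPPS1_12m and 302 to 638 in WT_12m, and to 287 to 712 in APPPS1_NLRP3_12m and 427 to 870.1 in NLRP3_12m. All 10 were detected in each of these libraries, and their part in the result was not tested. Microglial markers summed to 41020 to 61190 CPM in APPPS1_12m and 44920 to 50250 in WT_12m.

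The ratio of Ptger4 to Ptger3, both per kilobase, combines the opposite courses within a library. Its median was 0.808 in WT_4m and 1.20 in WT_12m (range 1.12 to 2.09). In APPPS1 the median was 0.946 at 4 months, 4.85 at 6 months (4.36 to 7.51) and 27.7 at 12 months (20.7 to 48). All 5 APPPS1_12m libraries were above all 3 of WT_12m. This follows from the separate ranges of Ptger4 and Ptger3 given above and is no further evidence. In APPPS1_NLRP3 it was 1.35, 4.61 and 9.34 at the 3 ages, and 94.4 in the Mxo4 set (13.6 to 267), where the Ptger3 counts are few. NLRP3_12m had a median of 0.939 with replicate 45 alone at 17.1, and APPPS1_12m_Mxo4 ranged over 2.20 to 84.3 with replicate 56 the lowest.

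**Figure D3:**
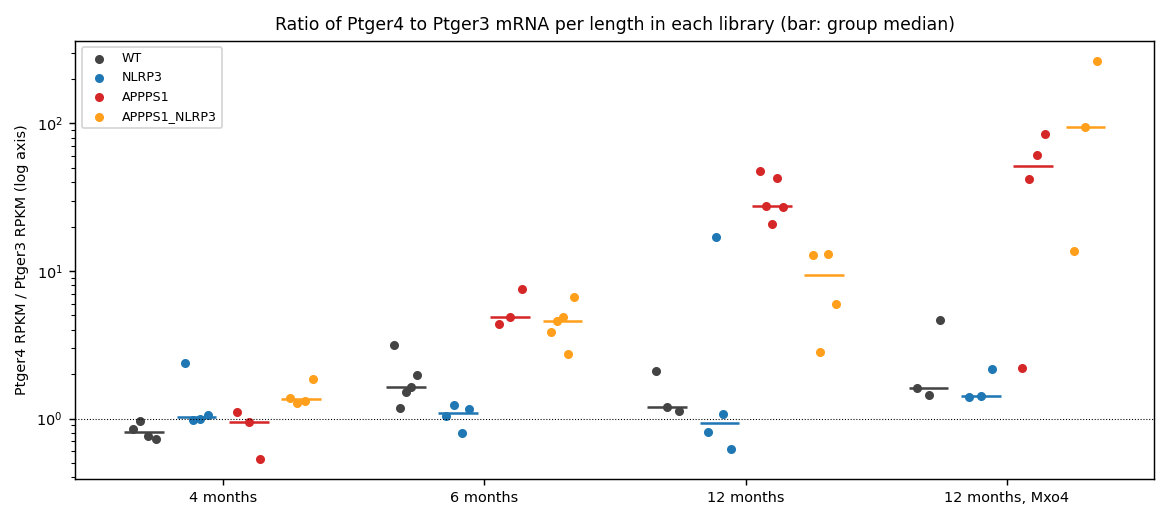
Ratio of Ptger4 to Ptger3 in RPKM (vertical axis, logarithmic) in each of 61 libraries by group (horizontal axis), where a point is a library and the bar is the group median. The 5 APPPS1_12m libraries lie at 20.7 to 48, and the WT libraries of all ages and the tag lie at 0.727 to 4.65.

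Ptger2, the other receptor that raises cyclic AMP, stayed near the detection limit at 0 to 1.06 CPM and was called in none of the 40 comparisons by edgeR; 6 had an unadjusted p under 0.05 and DESeq2 called 0. Of the 6 other prostanoid receptors listed, 5 were tested, and 0 were called by edgeR in either transgene comparison at 12 months, with 0 at an unadjusted p under 0.05. Of all genes, 18.1% were called there with intact Nlrp3 and 8.69% without it, and 6254 and 4304 of 19865 had an unadjusted p under 0.05. Among the enzymes and carriers of prostanoid synthesis and clearance, 3 of 14 tested were higher and 2 lower in APPPS1_12m (18.1% of all genes), with a median difference of 0.10 against −0.075 over all genes. Ptgs2, the inducible cyclooxygenase, rose by 2.21 ± 0.37 (adjusted p = 1.63e-05), from 30.9 to 43.6 CPM to 116 to 221. Ptgs1, the constitutive cyclooxygenase, fell by 0.39 ± 0.12 (adjusted p = 0.0160), and Abcc4, an exporter of prostaglandins, fell by 0.63 ± 0.20 (adjusted p = 0.0249). Akr1b3, an aldo-keto reductase, rose by 0.67 ± 0.13 (adjusted p = 7.75e-05). Without Nlrp3, Ptgs2 rose at 12 months by 1.31 ± 0.34 (adjusted p = 0.00933) and in the Mxo4 set by 2.11 ± 0.39 (adjusted p = 0.000285). With intact Nlrp3 it was not called in the Mxo4 set (1.04 ± 0.37 (adjusted p = 0.0920)) or at 6 months (0.74 ± 0.33 (adjusted p = 0.228)), where 0 of the 14 genes were called (5.08% and 3.03% of all genes).

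Hcar2, the ketone body receptor, had the largest positive difference of the 8 tested receptors at 12 months. WT_12m libraries read 34.8, 47 and 51 CPM. APPPS1_12m libraries read 232, 252, 317, 373 and 419 CPM, so every one was above every WT library. The difference was 2.85 ± 0.39 (adjusted p = 5.02e-07). It was 2.61 within second title number 1, with replicate 40 as the only WT_12m library, and 3.11 (adjusted p = 9.56e-06) within number 2. At 6 months the APPPS1 libraries at 55.1, 81.1 and 116 CPM were already above WT at 30.2, 32.2, 39.4, 41 and 51.5, yet 1.10 ± 0.34 (adjusted p = 0.0629) did not pass the test; without replicate 56 and the library of 659 counts it was 1.09 (adjusted p = 0.00688). At 4 months APPPS1 read 22.3, 26.7 and 27.7 CPM and WT 16.4, 18.7, 20.6 and 21.7, a difference of 0.41 ± 0.37 (adjusted p = 1).

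The rise of Hcar2 was also seen without Nlrp3. At 6 months NLRP3 read 52.6, 54.6, 60.1 and 64.2 CPM and APPPS1_NLRP3 138, 142, 171, 232 and 260.0. The groups did not overlap, and the difference was 1.70 ± 0.33 (adjusted p = 0.000341), with 1.91 (adjusted p = 0.0135) and 1.51 (adjusted p = 0.0127) within the second title numbers. At 12 months NLRP3 read 25.1, 49.1, 74.8 and 84.2 CPM and APPPS1_NLRP3 134, 164, 178 and 237, again apart, with 1.67 ± 0.35 (adjusted p = 0.00110). That difference was 1.71 (adjusted p = 0.0141) within second title number 1. Within number 2, where replicate 42 is the only NLRP3_12m library, it was 1.45 and not called. It was also not called in a fit of these groups alone, at 1.57 (adjusted p = 0.0511). With the tag NLRP3 read 61.4, 65.8 and 81.8 CPM and APPPS1_NLRP3 229, 318 and 385, with 2.14 ± 0.40 (adjusted p = 0.000311). With intact Nlrp3 and the tag, WT was at 41.6, 44.3 and 80.3 CPM and APPPS1 at 29.7, 172, 238 and 244, where the lowest is replicate 56 and lies under all 3 WT libraries. That difference was 1.63 ± 0.38 (adjusted p = 0.00508) with replicate 56, was not called when replicate 60 or replicate 61 was left out (adjusted p = 0.0526 and 0.0549), and was 2.01 (adjusted p = 3.19e-06) without replicate 56 and the library of 659 counts.

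Of 9 listed genes of ketone body enzymes and carriers, 1 was higher and 0 were lower in APPPS1_12m (18.1% of all genes), and 0 were called in APPPS1 minus WT at 6 months (3.03%) and in the Mxo4 set (5.08%). Oxct1, which starts the use of ketone bodies, rose by 0.63 ± 0.12 (adjusted p = 5.31e-05) at 12 months. Without Nlrp3 it rose by 0.66 ± 0.11 (adjusted p = 1.62e-05) at 6 months, 0.37 ± 0.11 (adjusted p = 0.0258) at 12 months and 0.50 ± 0.13 (adjusted p = 0.0106) in the Mxo4 set. Slc16a1, a carrier of ketone bodies and lactate, fell with Nlrp3 loss at 12 months, by 0.70 ± 0.17 in NLRP3 minus WT (adjusted p = 0.0195). The NLRP3_12m libraries were all male and the WT_12m libraries all female, and the 10 endothelial markers summed to 182 to 368 CPM in the former and 655 to 944 in the latter; their part in the result was not tested.

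Gpr84, the medium-chain fatty acid receptor, rose with the transgenes and, at 12 months, with Nlrp3 loss. WT_12m read 90.5, 94.9 and 155 CPM. APPPS1_12m read 219, 246, 259.5, 265 and 295 CPM, all above WT. The difference was 1.18 ± 0.27 (adjusted p = 0.00129), with 1.06 (adjusted p = 0.00732) within second title number 2. Within number 1, where replicate 40 is the only WT_12m library, it was 1.45 and not called. At 6 months without Nlrp3, NLRP3 read 135, 137, 137 and 138 CPM and APPPS1_NLRP3 241, 274, 278, 339 and 365. These did not overlap either, with 1.13 ± 0.24 (adjusted p = 0.00121), and 1.09 (adjusted p = 0.107) and 1.12 (adjusted p = 0.0139) within the second title numbers, the first not called. At 12 months without Nlrp3 the groups overlapped, at 190.3, 341, 364 and 392 CPM in NLRP3 and 298, 307, 339 and 349 in APPPS1_NLRP3, and the difference was 0.01 ± 0.25 (adjusted p = 0.992). In the Mxo4 set APPPS1 read 70.8, 211, 238 and 240.1 CPM, with replicate 56 the lowest, and WT 81, 99.3 and 157. The difference of 0.75 ± 0.28 (adjusted p = 0.110) did not pass the test and became 1.04 (adjusted p = 0.00284) without replicate 56 and the library of 659 counts.

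Loss of Nlrp3 in mice without the transgenes went with a higher Gpr84 at 12 months, where all 4 NLRP3_12m libraries were above all 3 of WT_12m. The difference was 1.50 ± 0.29 (adjusted p = 0.00325), and 1.64 and 1.66 within second title numbers 1 and 2, neither called. Number 1 holds a single WT_12m library and number 2 a single NLRP3_12m library. The call was lost without WT_12m replicate 40 (adjusted p = 0.0854). All NLRP3_12m libraries were male and all WT_12m libraries female, so sex and genotype cannot be told apart within these 2 groups; with a term for sex across all groups the difference was 1.79 (adjusted p = 0.00237). Endothelial markers summed to 182 to 368 CPM in NLRP3_12m and 655 to 944 in WT_12m, and the immediate-early and dissociation genes to 14400 to 19010 and 23680 to 24010; their part in the result was not tested. At 4 months, where all libraries were female, NLRP3 read 127, 154, 156 and 189 CPM, above all 4 WT libraries at 61.9, 77.8, 77.9 and 94.6, and 1.004 ± 0.25 (adjusted p = 0.0594) did not pass the test. Gpr84 was higher without Nlrp3 in 8 of 8 comparisons, in 5 of them with no overlap, and was called in 1. The share of all genes that keep a sign or separate in this way was not computed.

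Gpr84 was also lower with the tag in NLRP3 mice. NLRP3_12m_Mxo4 read 129, 133 and 204 CPM, against the untagged values above, of which the shallow replicate 45 is the lowest. The difference, tagged minus untagged, was −1.05 ± 0.28 (adjusted p = 0.0189), and the call was lost without replicate 50 or replicate 51 (adjusted p = 0.115 and 0.120). The immediate-early and dissociation genes, which respond to cell handling, summed to 36530 to 48320 CPM in the tagged and 14400 to 19010 in the untagged NLRP3 libraries, and their part in the result was not tested.

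Gpr165, the orphan receptor on the X chromosome, fell in APPPS1 against WT at 12 months. WT_12m read 32.9, 53 and 71.6 CPM. APPPS1_12m read 5.42, 11.1, 12.6, 19.7 and 23.4 CPM, all under WT, and the difference was −1.85 ± 0.39 (adjusted p = 0.000362). It was −1.98 within second title number 1, with replicate 40 as the only WT_12m library, and −2.13 (adjusted p = 0.0123) within number 2. At 4 months it read 91, 104 and 118 CPM in APPPS1 and 74.5, 81.9, 109.5 and 144 in WT, which overlap. In mice without the transgenes, too, every 12-month library read less than every 4-month library, both in WT and in NLRP3, which read 75.2, 106, 109 and 119 CPM at 4 months. The 12-month minus 4-month differences there were −0.96 ± 0.40 (adjusted p = 0.950) in WT and −1.39 ± 0.38 (adjusted p = 0.0751) in NLRP3, neither called. Without Nlrp3 at 12 months, NLRP3 read 26.1, 30.7, 39.1 and 58.2 CPM and APPPS1_NLRP3 8.36, 10.04, 18.3 and 18.5, with no overlap and a difference of −1.53 ± 0.39 (adjusted p = 0.00812). That call was lost without replicate 47 (adjusted p = 0.0553) and within second title number 1, at −1.15 (adjusted p = 0.142). It was also lost within number 2, at −2.07, where replicate 42 is the only NLRP3_12m library. Tagged APPPS1 libraries read 8.22, 14.3, 14.9 and 47.6 CPM, where the highest is replicate 56, and WT 22.6, 32.1 and 41.3. The difference there was −0.55 ± 0.41 (adjusted p = 0.528) with replicate 56 and −1.47 (adjusted p = 0.00603) without it and the library of 659 counts.

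The second comparison asked how loss of Nlrp3 related to the receptors. Ptafr, the receptor for platelet-activating factor, was the receptor called most often, higher without Nlrp3 in 8 of 8 comparisons and called in 4. The share of all genes that keep a sign over the 8, or whose groups do not overlap, was not computed. Among the 8 tested, 1 was called in NLRP3 minus WT at 4 months (0.378% of all genes) and 1 at 12 months (1.47%), both higher. At 6 months (0.443%) and in the Mxo4 set (0.0956%) 0 were called by edgeR, and DESeq2 called 2 and 0. An unadjusted p under 0.05 was reached there by 2 and 1 receptors and by 1950 and 1066 of 19865 genes. In APPPS1_NLRP3 minus APPPS1, 1 was called higher at 4 months (0.206%), 1 at 6 months (0.488%) and 1 in the Mxo4 set (0.287%). At 12 months 0 were called (5.71%), 4 had an unadjusted p under 0.05 (4501 of 19865 genes) and DESeq2 called 2. Without replicate 56 and the library of 659 counts, 1 was higher and 2 lower in that last comparison (7.15% of all genes), in which all APPPS1 libraries were female and all APPPS1_NLRP3 libraries male.

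At 4 months, Ptafr read 77.1, 78.5, 78.8 and 82.4 CPM in WT and 108, 122, 150.5 and 171 in NLRP3, with no overlap and a difference of 0.80 ± 0.18 (adjusted p = 0.0213). That call was lost without any 1 of replicates 1, 5, 7, 10 and 15 (adjusted p up to 0.139). With the transgenes at 4 months, APPPS1 read 73.2, 75 and 78 CPM and APPPS1_NLRP3 118, 142, 166 and 169, again apart, with 0.99 ± 0.20 (adjusted p = 0.00634), and 0.0994 as the adjusted p without replicate 3. The WT and APPPS1 libraries lay close together at 73.2 to 82.4 CPM, and the libraries without Nlrp3 lay at 108 CPM and above.

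At 6 months APPPS1 read 67.8, 75.7 and 76.3 CPM and APPPS1_NLRP3 88.1, 109.6, 111, 184 and 210.1, apart by 0.93 ± 0.19 (adjusted p = 0.00666), with an adjusted p of 0.120 without replicate 22. These APPPS1 libraries were all female, and those of APPPS1_NLRP3 were 2 female and 3 male. Tagged APPPS1 libraries read 73.4, 76.3, 77.6 and 77.8 CPM and tagged APPPS1_NLRP3 libraries 156, 156 and 164, apart by 1.14 ± 0.20 (adjusted p = 0.00077); here replicate 56 did not stand apart. Of the 4 comparisons not called, 3 had no overlap between the groups. WT_6m read 67, 68, 69.8, 76.3 and 80.7 CPM and NLRP3_6m 89.99, 96.2, 107 and 148, with 0.59 ± 0.17 (adjusted p = 0.0983). WT_12m read 72, 72.8 and 75.3 CPM and NLRP3_12m 102, 113, 126 and 136, with 0.67 ± 0.20 (adjusted p = 0.0627). WT_12m_Mxo4 read 81.8, 107 and 127 CPM and NLRP3_12m_Mxo4 163, 168 and 187, with 0.74 ± 0.20 (adjusted p = 0.215). In the pair that overlapped, APPPS1_12m read 72.5, 87.3, 88.3, 88.9 and 105 CPM and APPPS1_NLRP3_12m 67.2, 101, 112 and 148, with 0.28 ± 0.17 (adjusted p = 0.327).

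The mean of the 8 Nlrp3 differences, again chosen after seeing the data, was 0.77 ± 0.07 (adjusted p = 5.19e-13) for Ptafr, 0.71 ± 0.09 (adjusted p = 1.82e-07) for Gpr84 and 0.45 ± 0.13 (adjusted p = 0.0141) for Hcar2, where 12% of all genes were called. The Hcar2 mean was not called with a term for the first title number, at 0.41 (adjusted p = 0.0506). None of the 8 Hcar2 differences behind it was called, and they ran from −0.84 ± 0.32 in APPPS1_NLRP3 minus APPPS1 at 12 months, which was called lower at −0.87 (adjusted p = 0.0236) without replicate 56 and the library of 659 counts, to 1.18 ± 0.36 at 6 months, which was called higher at 1.20 (adjusted p = 0.0202) in the same smaller set. These comparisons share libraries with the transgene comparisons. Within second title numbers 1 and 2 the Ptafr difference was 0.73 (adjusted p = 0.612) and 0.86 (adjusted p = 0.311) for NLRP3 minus WT at 4 months. For APPPS1_NLRP3 minus APPPS1 at 4 months it was 1.16 (adjusted p = 0.550) and 0.82, the latter with replicate 6 as the only APPPS1 library. None of the 4 passed the test in these smaller fits. In the Mxo4 set APPPS1_NLRP3 has libraries of number 2 alone, and APPPS1 has only replicate 56 of that number. The difference there was 1.14.

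Several marker lists of other cells moved with Ptafr at 4 months. Markers of border-associated macrophages summed to 722 to 1108 CPM in NLRP3_4m and 377 to 684 in WT_4m, those of astrocytes to 285 to 476 and 196 to 276, and those of oligodendrocytes to 369 to 640.2 and 185 to 256. All 10 macrophage and all 9 astrocyte markers were detected in each of these libraries, and up to 3 of the 10 oligodendrocyte markers were at 0. Their part in the result was not tested. Among tagged libraries the macrophage sums were 400.3 to 429 CPM in APPPS1_NLRP3 and 192 to 536 in APPPS1. The astrocyte sums there were 96 to 174 and 66.1 to 232, and the oligodendrocyte sums 177 to 255 and 196 to 287. This is a different pair of genotypes, and the part of these cells was not tested there either.

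**Figure D4:**
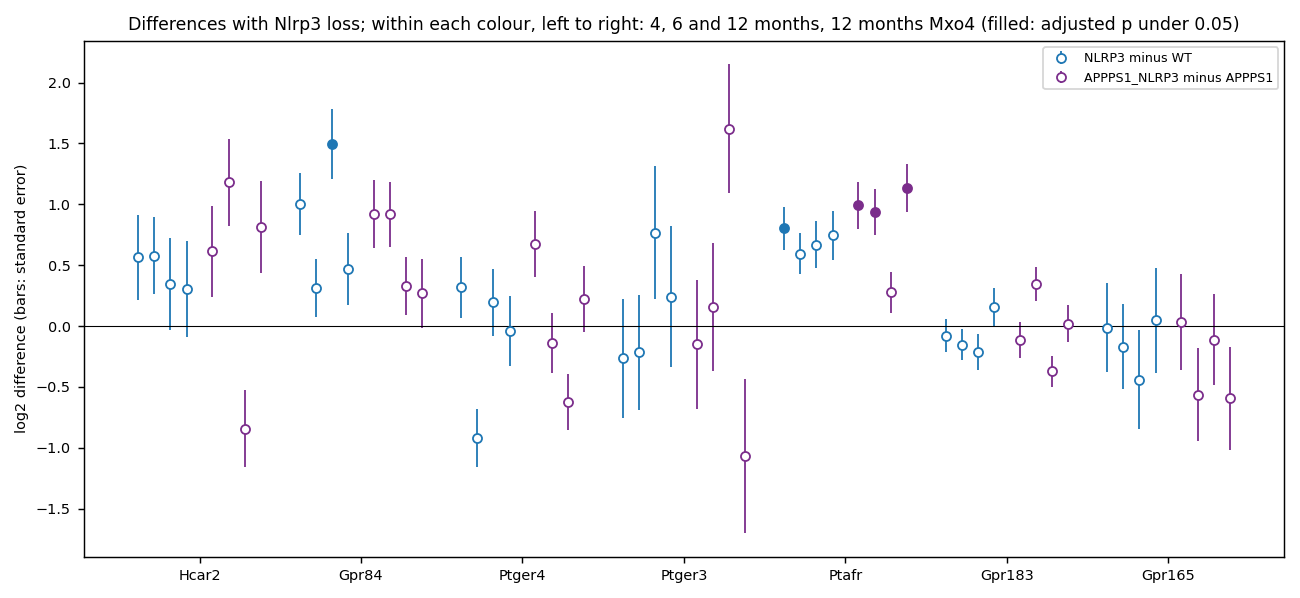
Differences with loss of Nlrp3 for 7 receptors (vertical axis, log2 difference, bars are the standard error), 4 comparisons without the transgenes and 4 with them, where filled points have an adjusted p under 0.05. All 8 Ptafr and all 8 Gpr84 points lie above 0, and 4 Ptafr points are filled.

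Of the 9 genes listed for synthesis and breakdown of platelet-activating factor, all were tested, and the transgene comparison at 12 months called 2 higher and 2 lower (18.1% of all genes). Lpcat2, which makes platelet-activating factor in activated macrophages, fell by 0.60 ± 0.13 (adjusted p = 0.00042), and Pafah1b3, a subunit of an acetylhydrolase that inactivates it, rose by 0.94 ± 0.20 (adjusted p = 0.000391). Lpcat1 rose by 0.30 ± 0.10 (adjusted p = 0.0208) and Lpcat3, which acts on membrane phospholipids, fell by 0.45 ± 0.10 (adjusted p = 0.000433). Their median difference was −0.20 against −0.075 over all genes. Ptafr itself differed by 0.24 ± 0.19 (adjusted p = 0.398) in the same comparison and was not called.

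Gpr183, the oxysterol receptor, was abundant and steady, and no transgene or Nlrp3 comparison called it. WT_12m read 318, 319.6 and 333 CPM and APPPS1_12m 288, 331, 360.3, 390.1 and 484, which overlap, with a difference of 0.21 ± 0.14 (adjusted p = 0.318). Its only call was a rise of 0.47 ± 0.14 (adjusted p = 0.0199) from 6 to 12 months in APPPS1, where the 6-month libraries read 188, 299 and 328 CPM. It was no longer called without replicate 22 or 41 (adjusted p = 0.281 and 0.136). Of 6 enzymes of its ligands, 1 was called higher and 2 lower in APPPS1_12m (18.1% of all genes). Ch25h, which makes the precursor of the Gpr183 ligand, rose by 3.94 ± 0.56 (adjusted p = 1.05e-06), from 2.28 to 5.74 CPM to 32.6 to 105. Cyp46a1, which hydroxylates cholesterol at another position, fell by 1.43 ± 0.35 (adjusted p = 0.00244), and Cyp27a1, another cholesterol hydroxylase, fell by 0.31 ± 0.10 (adjusted p = 0.0243). Ch25h also rose in both Mxo4 comparisons, by 2.42 ± 0.54 (adjusted p = 0.00358) with intact Nlrp3 and 3.81 ± 0.60 (adjusted p = 2.39e-05) without. The enzyme and the receptor of this pathway thus had unlike courses.

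**Figure D5:**
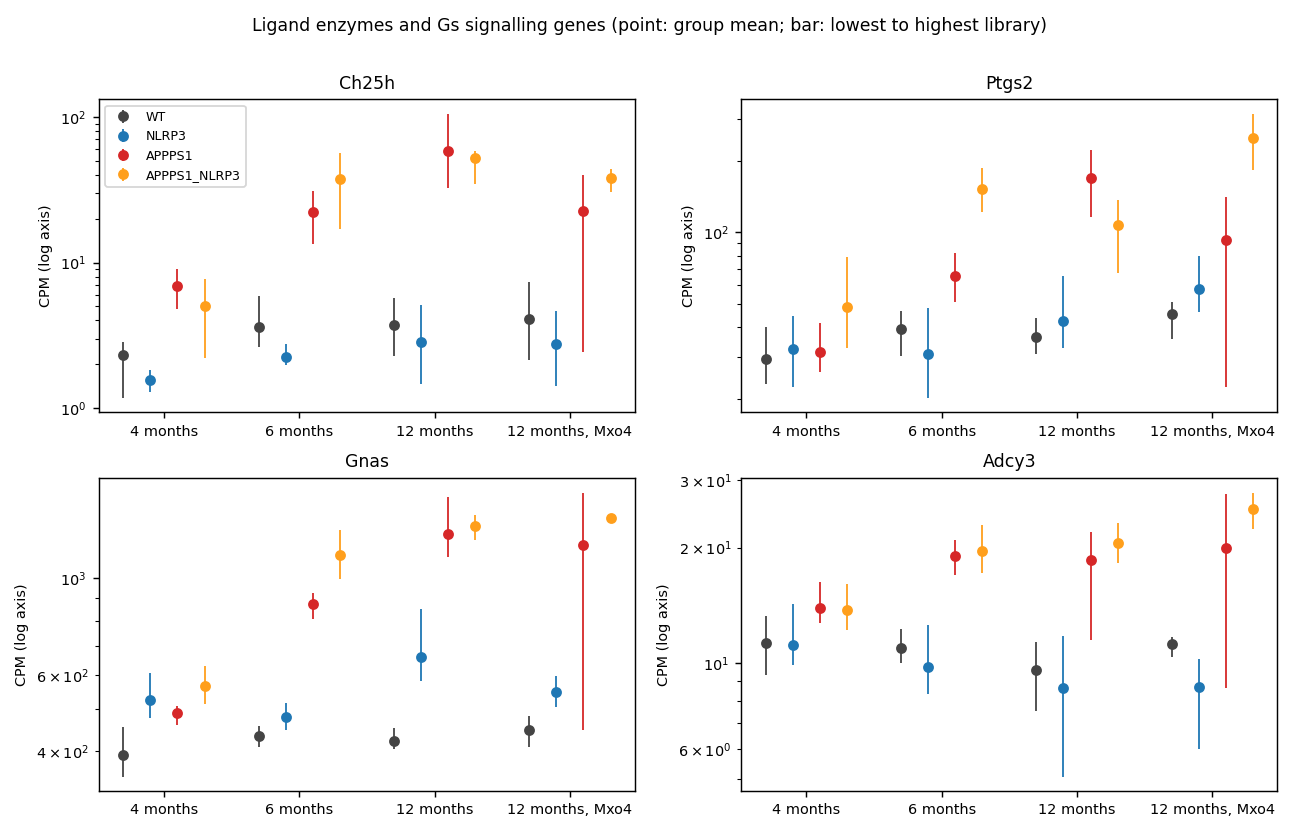
Group means of Ch25h, Ptgs2, Gnas and Adcy3 in CPM (vertical axes) by group (horizontal axis), with bars from the lowest to the highest library. Ch25h lies at 2.28 to 5.74 CPM in WT_12m and 32.6 to 105 CPM in APPPS1_12m.

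Sucnr1 was not detectable at this depth, while Sdhb and Sdhd were counted at 81.1 CPM or more in every library. Of 10 genes of succinate and itaconate metabolism, 4 were higher and 0 lower in APPPS1_12m (18.1% of all genes), with a median difference of 0.33 against −0.075 over all genes. Suclg2, a subunit of a succinate-forming ligase, rose by 0.59 ± 0.12 (adjusted p = 0.000208), and Sdhb and Sdhd, subunits of succinate dehydrogenase, rose by 0.43 ± 0.12 (adjusted p = 0.00592) and 0.42 ± 0.11 (adjusted p = 0.00656). Slc25a10, a mitochondrial dicarboxylate carrier, rose by 0.47 ± 0.15 (adjusted p = 0.0195). Without Nlrp3, 1 of the 10 was called at 6 months (8.03% of all genes) and 0 at 12 months (8.69%) by edgeR. At 12 months 3 had an unadjusted p under 0.05, as did 4304 of 19865 genes.

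Downstream of the receptors, 5 of 23 genes of G protein and cyclic AMP signalling were higher and 3 lower in APPPS1_12m (18.1% of all genes), with a median difference of 0.14 against −0.075 over all genes. Gnas, the stimulatory alpha subunit that Ptger2 and Ptger4 couple to, rose by 1.57 ± 0.20 (adjusted p = 7.16e-08), from 406 to 452 CPM to 1123 to 1544. Adcy3, an adenylyl cyclase, rose by 0.90 ± 0.21 (adjusted p = 0.00150). Rgs16, which shortens signalling by inhibitory and Gq proteins, rose by 3.63 ± 0.71 (adjusted p = 0.000153), and the receptor kinase Grk2 fell by 0.41 ± 0.11 (adjusted p = 0.00831). Without Nlrp3, Gnas rose by 1.25 ± 0.17 (adjusted p = 1.44e-06) at 6 months, 1.02 ± 0.18 (adjusted p = 8.42e-05) at 12 months and 1.34 ± 0.21 (adjusted p = 1.61e-05) in the Mxo4 set.

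Of 30 other receptors for metabolites and lipids, 24 were tested, and 1 was higher and 2 lower in APPPS1_12m (18.1% of all genes), 0 higher and 6 lower in APPPS1 minus WT of the Mxo4 set (5.08%), and 1 higher and 3 lower in APPPS1_NLRP3_12m (8.69%). Cnr2, the cannabinoid receptor of immune cells, rose by 0.47 ± 0.17 (adjusted p = 0.0445). The nucleotide receptor P2ry6 fell by 0.38 ± 0.11 (adjusted p = 0.0101) and the lysophosphatidic acid receptor Lpar6 by 0.37 ± 0.13 (adjusted p = 0.0427). In the Mxo4 set the adenosine receptor Adora3 fell by 0.60 ± 0.12 (adjusted p = 0.00102) and Gpr35 by 1.03 ± 0.22 (adjusted p = 0.00200). With loss of Nlrp3 in APPPS1 at 12 months, the lysophosphatidylserine receptor Gpr34 fell by 0.90 ± 0.20 (adjusted p = 0.00808).

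The third comparison asked how the receptors changed with age within a genotype. In WT, 0 of 8 were called between 4 and 12 months (0.0252% of all genes), 2 had an unadjusted p under 0.05 (1026 of 19865 genes) and DESeq2 called 0. In NLRP3, 1 was called higher (0.418%) and DESeq2 called 2; without replicate 56 and the library of 659 counts 1 was higher and 1 lower (0.635% of all genes), the latter Gpr165 at −1.43 (adjusted p = 0.0213). In APPPS1, 3 were higher and 2 lower (22.3%), and in APPPS1_NLRP3 2 were higher and 1 lower (12.1%). Without replicate 56 and the library of 659 counts the count in APPPS1_NLRP3 was 3 higher and 2 lower (13.1%). These age comparisons share their 4-month and 12-month libraries with the genotype comparisons above, and in NLRP3 and APPPS1_NLRP3 the 4-month libraries were female and the 12-month libraries male.

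In APPPS1 from 4 to 12 months, Hcar2 rose by 3.63 ± 0.41 (adjusted p = 3.64e-08), Ptger4 by 2.15 ± 0.27 (adjusted p = 1.5e-07) and Gpr84 by 1.26 ± 0.27 (adjusted p = 0.000475). Over the same span Ptger3 fell by 3.06 ± 0.55 (adjusted p = 3.41e-05), and Gpr165 fell by 2.82 ± 0.39 (adjusted p = 5.55e-07). All 5 APPPS1_12m libraries lay outside the 4-month range for each of these 5 receptors, which are named here because they were called. The share of all genes that separate in this way was not computed, and 22.3% of all genes were called. In APPPS1_NLRP3 Hcar2 rose by 2.18 ± 0.35 (adjusted p = 1.88e-05) and Gpr165 fell by 2.96 ± 0.40 (adjusted p = 1.75e-06). Beside these, markers of border-associated macrophages summed to 786 to 1341 CPM at 4 months and 287 to 712 at 12 months, and the immediate-early and dissociation genes to 15830 to 24280 and 9953 to 14610; their part in the result was not tested. Ptger4 rose by 0.85 ± 0.24 (adjusted p = 0.0141), which was no longer called without replicate 9 or 43 (adjusted p = 0.0587 and 0.0619). In NLRP3 Gpr84 rose by 1.03 ± 0.25 (adjusted p = 0.0468), and leaving out any 1 of replicates 10, 12, 15, 42, 45 and 48 ended that call (adjusted p up to 0.165).

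The steps between ages were compared in the mice with the transgenes. In APPPS1 from 4 to 6 months 0 were called (0.242% of all genes), 4 had an unadjusted p under 0.05 (2324 of 19865 genes) and DESeq2 called 3. Without replicate 56 and the library of 659 counts, 2 were higher and 1 lower (1.61%). Hcar2 there differed by 1.69 ± 0.40 (adjusted p = 0.0504). From 6 to 12 months in APPPS1, 3 were higher and 1 lower (15.3%): Hcar2 by 1.94 ± 0.37 (adjusted p = 0.00136), Ptger4 by 1.01 ± 0.26 (adjusted p = 0.00729), Gpr183 as above and Gpr165 by −1.38 ± 0.39 (adjusted p = 0.0144), the last lost without replicate 22 or 41. In APPPS1_NLRP3 from 4 to 6 months Hcar2 rose by 2.26 ± 0.34 (adjusted p = 5.43e-05) and Gpr165 fell by 2.03 ± 0.35 (adjusted p = 0.000319), 1 higher and 1 lower (5.65%). The 4-month libraries of that genotype were all female, and the 6-month libraries were 2 female and 3 male. From 6 to 12 months in APPPS1_NLRP3, 0 were called (1.07%), 3 had an unadjusted p under 0.05 (2157 of 19865 genes) and DESeq2 called 0. Whether the steps differ between the backgrounds was not tested.

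The difference between ages of the transgene difference was tested directly. For APPPS1 minus WT, 12 months minus 4 months, 2 receptors were called higher and 2 lower (4.92% of all genes). The change was 2.44 ± 0.53 (adjusted p = 0.00386) for Hcar2, 1.92 ± 0.38 (adjusted p = 0.00238) for Ptger4, −2.60 ± 0.76 (adjusted p = 0.0331) for Ptger3 and −1.86 ± 0.55 (adjusted p = 0.0359) for Gpr165. Hcar2 was not called with a term for the first title number, at 1.92 (adjusted p = 0.129). Within second title number 1, with a single WT_12m library, Hcar2 at 2.10 and Ptger4 at 1.41 were not called. The last 2 calls were not held within either second title number or once the first title number was added, and were lost in 10 leave-outs each (adjusted p up to 0.0919 and 0.109). From 4 to 6 months with intact Nlrp3 0 were called (0%) and 0 had an unadjusted p under 0.05 (680 of 19865 genes). Without Nlrp3 0 were called from 4 to 12 months (1.02%) and 0 from 4 to 6 months (1.51%). There 5 and 4 had an unadjusted p under 0.05 (2650 and 2623 of 19865 genes). DESeq2 called 0 in all 3 comparisons. Without replicate 56 and the library of 659 counts, the 4-to-6-month change without Nlrp3 was called for Hcar2, at 1.24 (adjusted p = 0.0449), and Ptger4, at 1.01 (adjusted p = 0.0371), where 2.77% of all genes were called.

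Whether the transgene difference depended on Nlrp3 was also tested, and 0 of 8 receptors were called by edgeR at 4 months (0% of all genes), 6 months (0.0151%), 12 months (0%) or in the Mxo4 set (0%). Unadjusted p-values under 0.05 numbered 1, 2, 3 and 0 among the receptors and 355, 1465, 1961 and 802 among 19865 genes. DESeq2 called 0 of the receptors. At 12 months the interaction was −1.19 ± 0.50 (adjusted p = 0.391) for Hcar2, −1.17 ± 0.37 (adjusted p = 0.215) for Gpr84 and −0.82 ± 0.36 (adjusted p = 0.426) for Ptger4. These values did not pass the test, so the calls above do not show that any receptor responded differently with and without Nlrp3.

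For the tag, 0 of 8 receptors were called in WT (0.166% of all genes), APPPS1 (6.38%) and APPPS1_NLRP3 (0.916%) by edgeR, and 0, 1 and 1 by DESeq2. An unadjusted p under 0.05 was reached by 1, 1 and 4 receptors and by 2053, 4625 and 2634 of 19865 genes. In NLRP3 1 was called lower (6.62%), the Gpr84 fall described above. The interaction of tag and transgene called 0 with intact Nlrp3 (0.0151%) and 0 without it (0%), and DESeq2 called 0. There 3 and 0 receptors had an unadjusted p under 0.05 (1923 and 888 of 19865 genes).

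Across the 16 group means, the genes with the pattern closest to each receptor were found by Pearson correlation of log2 levels among 10038 genes whose mean level reached 5 CPM. For Hcar2 they were Galk2 (r = 0.969), Gcnt2 (0.964) and Sowahc (0.962). For Ptger4 they were Lilrb4a (0.975), Lyz2 (0.974) and Gpr65 (0.971), and for Ptger3 Pomk (0.969), Serpinf1 (0.958) and Cdca7 (0.952). Gpr84 was closest to Pdgfa (0.944), Denr (0.939) and Ei24 (0.936). Gpr165 was closest to Slc25a45 (0.953), Srl (0.953) and Ms4a6b (0.947), and Gpr183 to Ppp4r2 (0.91), Mgme1 (0.858) and Rsrc2 (0.857). Ptafr was closest to Ranbp3l (0.893), Slc1a3 (0.891) and Eno1b (0.884). Slc1a3 is an astrocyte transporter gene and a neighbour of Ranbp3l in the genome, so these need not be separate likenesses. What links them to Ptafr was not tested. Ptger2, at its low counts, reached 0.787 with Dnaja3. The choice depends on the measure: with Spearman correlation, 2 of the 3 genes stayed for Ptger4, Gpr183 and Gpr165, 1 for Hcar2, Gpr84 and Ptger2, and 0 for Ptger3 and Ptafr. Group means come from the same libraries for every gene, so these are descriptions.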

How the data were processed

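Counts of reads per gene were deposited by the authors as 1 matrix of 62 libraries. Per the labels' protocols, RNA was purified with the miRNA easy kit, 10 ng went into SMART-Seq v4 libraries prepared in 2 batches, and paired reads of 125 bp were sequenced on a HiSeq instrument. Per the submitters' processing notes, Trimmomatic, TopHat and HTSeq were used with mm10; versions and the strand setting are not given in the sources used here. The protocol names no molecular identifiers, so PCR copies stay in the counts, and floors cover counting error only.

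Symbols came from GENCODE vM21 by gene identifier (53706 of 53801 matched). All 62 libraries were fitted together with edgeR 4.0.16 in R 4.3.3 (TMM normalisation, 1 coefficient for each group plus the second title number, robust quasi-likelihood F test, two-sided, standard error from the F value). After filterByExpr with a minimum count of 10 and a minimum total of 15, 19865 genes remained, and p-values were adjusted by Benjamini-Hochberg over all of them in each of 40 comparisons, 28 between 2 groups, 10 interactions and 2 means of 8 pairs. Levels are CPM on TMM library sizes, in libraries of at least 100000 counts, and RPKM uses the union of exons. Likeness of pattern used log2(CPM + 0.5) of group means. The alternatives were DESeq2 1.42.0 and its size factors, no filter, other terms, subsets of libraries and leaving out each library. The analysis scripts were tested on simulated data.

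The named genes are the 9 receptors, up to 4 called genes of each listed pathway per comparison (those with the smallest adjusted p) and the 3 genes nearest in pattern; examples in the text are drawn from these. The members and lists were chosen with earlier results of these data known.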

Additional observations from a re-analysis of the deposited data

Results flagged for a closer look

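Libraries far from the others of their group were looked for in 80 groups of 4 to 5 values, and 3 were flagged. Chance gives about 1 in 20, so 3 in 80 is no more than chance gives. Ptger3 was 18.1 CPM in WT_4m replicate 7 and 12.7 to 13.6 CPM in the other 3 libraries. In APPPS1_12m_Mxo4 replicate 56, Ptger3 was 7.36 CPM against 0.667 to 1.13 CPM in the other 3, and Gpr165 was 47.6 CPM against 8.22 to 14.9 CPM.

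In 4 receptors the change of the APPPS1 minus WT difference between 12 and 4 months was called (edgeR interaction, log2 scale). It was 2.44 for Hcar2 (adjusted p = 0.00386) and 1.92 for Ptger4 (adjusted p = 0.00238), both larger at 12 months, and −2.60 for Ptger3 (adjusted p = 0.0331) and −1.86 for Gpr165 (adjusted p = 0.0359), both lower at 12 months. The calls of Ptger3 and Gpr165 were lost in several leave-outs and within either second title number. Hcar2 and Ptger4 were not called within second title number 1, nor was Hcar2 with a term for the first title number.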

How the results depend on the processing

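Of the 50 calls on receptors in the 40 comparisons, 25 held in every setting run, and 31 of the 45 with leave-outs held whichever single library was left out. Across the settings other than leave-outs, 567 of 630 values of called results kept direction and call, 61 kept direction and lost the call, and 2 reversed. Counts below are calls over the receptors of a family of comparisons, and the cause of each change was not tested.

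Leaving out APPPS1_12m_Mxo4 replicate 56 and libraries under 100000 counts, a choice made after seeing the data, changed the calls from 7 to 11 for the transgenes with intact Nlrp3, from 2 to 4 and from 3 to 8 for Nlrp3 loss without and with the transgenes, from 15 to 23 for age and from 1 to 2 for the tag. DESeq2 gave 6, 6, 23 and 3 for these last 4, and fitting only the groups compared gave 4, 7, 23 and 0. Without replicate 56 and the libraries under 100000 counts, the share of all genes called changed as well. It went from 5.08% to 12.6% in APPPS1 minus WT of the Mxo4 set and from 5.71% to 7.15% in APPPS1_NLRP3 minus APPPS1 at 12 months. For the tag in APPPS1 it fell from 6.38% to 2.93%. Only second title number 2 gave 6 for the transgenes without Nlrp3 (10 in the full fit), 0 and 5 for Nlrp3 loss without and with the transgenes, 5 for the tag, and 2 each for the interactions of the transgenes with Nlrp3 (0), age (4) and the tag (0). Only second title number 1 gave 0 for Nlrp3 loss without the transgenes, 9 for age and 0 for the interaction with age; families that need APPPS1_NLRP3_12m_Mxo4 have no value there, because that group has no library of number 1. A term for the first title number gave 1 for Nlrp3 loss without the transgenes and 1 for the interaction with age, which was 2 with no filter on low counts.

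With single libraries left out, calls ranged from 6 to 10 for the transgenes with intact Nlrp3 and 8 to 11 without it, from 1 to 2 and 2 to 6 for Nlrp3 loss without and with the transgenes, from 13 to 16 for age, from 0 to 2 for the tag and from 2 to 4 for the interaction with age. Leave-outs were not run for the other interactions and for the mean of the 8 transgene pairs.

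Direction turned in these cases. In APPPS1 minus WT of the Mxo4 set, where replicate 56 is the only APPPS1 library of second title number 2, that number alone gave −0.58 for Hcar2, −0.49 for Gpr84, −0.26 for Ptger4 and 0.56 for Gpr165. In APPPS1_NLRP3 minus APPPS1 of the Mxo4 set, Ptger3 went to 0.46 and Gpr165 to 0.42 without replicate 56, with or without the shallowest library; over single libraries Ptger3 ranged from −2.80 to 0.46 and Gpr165 from −0.86 to 0.42. For the tag in APPPS1, Ptger3 went to −0.99 with number 1 only and to −0.90 without replicate 56 and the shallowest library, and ranged from −0.89 to 0.85 over single libraries; Gpr165 went to −0.54 and −0.37 and ranged down to −0.35. Ptger3 from 4 to 12 months in NLRP3 went to −0.015 with a term for sex. Of these, the Hcar2 and Ptger4 differences were called in the full fit, and the others were not.

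No 2 libraries carry the same replicate number, so the labels name no pairs. Libraries of different groups share first title numbers, and the fit with a further term for that number kept 39 of the 50 calls. Depth limits Sucnr1 and Ptger2 throughout and Ptger3 where its counts are few.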
